A study of Homo sapiens with 18 samples.

Results

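The 10 genes described here, which carry amino acids across the plasma membrane or the lysosomal membrane, were followed through RKO cells depleted of ESCRT-I, the complex that sorts ubiquitinated membrane proteins for breakdown in lysosomes. They were chosen by name, as SLC7A5, SLC3A2, SLC1A5, SLC1A4, SLC38A1, SLC38A2, SLC7A1, SLC38A9, SLC36A1 and SLC36A4, and make up 10 of the 20802 genes in the count tables. RKO is an established human colorectal carcinoma line. The cells received 30 nM of a single siRNA for 72 h, in 6 groups of 3 biological replicates: siTsg101#1 and siTsg101#2 against the ESCRT-I subunit Tsg101, siVps28#1 and siVps28#2 against the subunit Vps28, and siCtrl#1 and siCtrl#2, which have no target. All 18 libraries came from the same parental line, and the replicate numbers 1, 2 and 3 mark the batch.

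Cells take up amino acids through exchangers and sodium-coupled carriers at the plasma membrane, and recover more from proteins digested in lysosomes, whose membrane holds its own exporters. Many plasma membrane transporters are known to be internalised, ubiquitinated and degraded along the endosomal route, and many are transcribed at higher rates when amino acids run short, through the transcription factor ATF4. Lysosomal genes often carry a different promoter element, which is read by TFEB and its relatives. The measurements below are of transcripts, not of transporter protein.

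The most changed of the 10 was SLC36A1, which encodes a proton-coupled carrier that exports small neutral amino acids from lysosomes. Its transcript rose from the level with siCtrl#1 whichever subunit was depleted: siTsg101#1 raised it 7.10-fold and siTsg101#2 7.65-fold, while siVps28#1 raised it 3.19-fold and siVps28#2 4.09-fold. From the higher level with siCtrl#2 the same folds were 3.14, 3.38, 1.41 and 1.81, and that of siVps28#1 was not called (edgeR adjusted p = 0.247). SLC36A4, a related carrier of proline and tryptophan, rose with siTsg101#1, by 1.75-fold, but stood at 1.03-fold with siTsg101#2 (edgeR adjusted p = 0.913), and the siTsg101#1 call was lost without siCtrl#1 replicate 1 (edgeR adjusted p = 0.0596). None of the 7 plasma membrane members and not SLC38A9 passed the test for any on-target siRNA against siCtrl#1.

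Libraries held between 2561790 and 7466916 reads on genes, with a median of 5022216, and no pair of libraries held identical counts. Counts were scaled to CPM (counts scaled to library size, the size adjusted by the TMM method) and were tested over 10212 genes with edgeR's quasi-likelihood test. A gene was called when it changed at least 1.5-fold with a Benjamini-Hochberg adjusted p under 0.05, and log2 differences are given with their standard errors. The targeted transcripts fell in the groups labelled for them: on the log2 scale TSG101 changed by -4.84 (SE 0.34) with siTsg101#1 and -5.10 (SE 0.34) with siTsg101#2, and VPS28 by -4.15 (SE 0.22) with siVps28#1 and -4.07 (SE 0.21) with siVps28#2. Of 7 epithelial markers, KRT18, CDX2, KRT8 and EPCAM were detected and tested, CDH1 had no read and KRT19 and VIL1 had 1 and 6 reads in all libraries; of 7 leukocyte, fibroblast and endothelial markers, COL1A1 had 50 reads, PECAM1 had 10 and the others had none. Each value is a share of a library's reads, so fewer transcripts of one gene and more RNA of all other genes per cell cannot be told apart, and each gene was read through its own amplicon, so levels are compared between groups and not between genes.

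**Figure D1:**
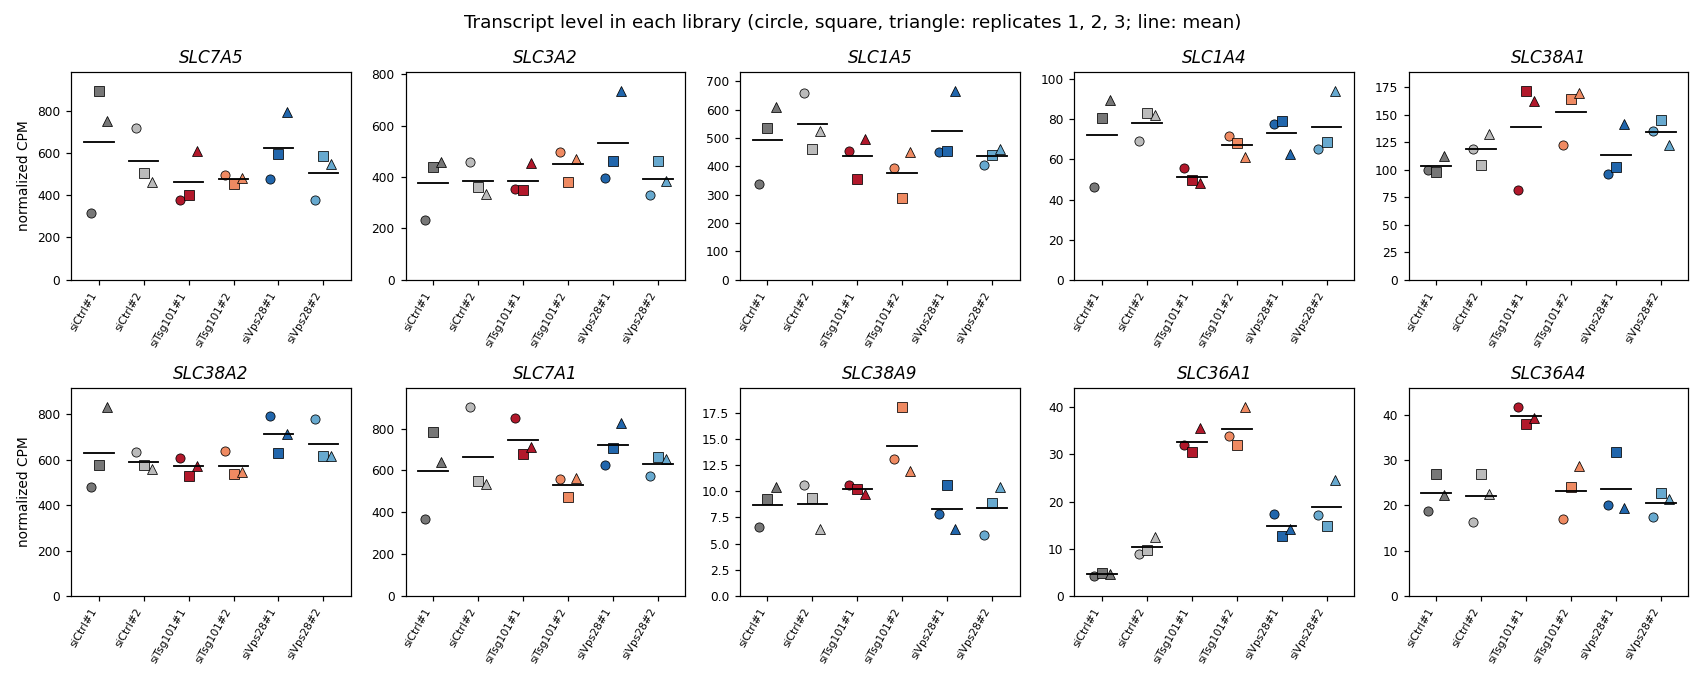
Normalized CPM (y axis, linear, starting at 0, with its own range in each panel) of the 10 transporters in the 18 libraries, by siRNA group (x axis); circles, squares and triangles are replicates 1, 2 and 3 and lines are means of 3. SLC36A1 is higher in all 12 on-target libraries than in the 6 control libraries, SLC36A4 is high in the 3 siTsg101#1 libraries, and the first siCtrl#1 replicate is the lowest of the 18 for SLC7A5, SLC3A2, SLC1A4, SLC38A2 and SLC7A1.

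SLC36A1 lies at chr5:150816607-150871940 on the plus strand of GRCh37. Its promoter, from 250 bases before to 50 bases after the start that RefSeq gives, is shown because SLC36A1 was the member that moved with every on-target siRNA. It was searched on both strands for the letters CACGTG, the core shared by the elements of TFEB and other bHLH factors, and for TGATGNAA, the element bound by ATF4 with a C/EBP partner. Neither was found in these 300 bases (chr5:150816357-150816656, plus strand), which says nothing of other starts or of distant elements.
SLC36A1: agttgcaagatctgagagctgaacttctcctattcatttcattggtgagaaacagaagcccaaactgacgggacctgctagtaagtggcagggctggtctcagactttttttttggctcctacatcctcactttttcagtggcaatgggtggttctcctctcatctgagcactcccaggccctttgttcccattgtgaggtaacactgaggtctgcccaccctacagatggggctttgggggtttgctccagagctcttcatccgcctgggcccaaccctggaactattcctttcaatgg

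Motif matches lay instead in the promoters of 4 plasma membrane members, shown here around the match, which is in capitals, so that the members can be compared. The first, in SLC7A5 (chr16:87903198-87903283, minus strand), is CACGTG, and those in SLC3A2 (chr11:62649168-62649220, plus strand), SLC38A1 (chr12:46660258-46660343, minus strand) and SLC7A1 (chr13:30169776-30169858, minus strand) are TGATGNAA, in SLC3A2 on the reverse strand.
SLC7A5: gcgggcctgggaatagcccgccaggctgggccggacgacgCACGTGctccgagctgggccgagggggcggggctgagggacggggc
SLC3A2: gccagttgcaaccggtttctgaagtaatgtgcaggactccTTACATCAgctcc
SLC38A1: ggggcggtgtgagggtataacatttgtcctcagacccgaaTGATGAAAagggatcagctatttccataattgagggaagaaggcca
SLC7A1: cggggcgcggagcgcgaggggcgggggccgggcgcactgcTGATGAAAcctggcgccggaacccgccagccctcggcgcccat

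CACGTG was thus in 1 of the 10 promoters, against 10.91% of the 8432 promoters of tested genes and 7.43% of all 27305 promoters of that length. TGATGNAA was in 3 of 10, against 1.59% of the promoters of tested genes and 3.67% of all. The promoters of SLC1A5, SLC1A4, SLC38A2, SLC38A9 and SLC36A4 held neither. These matches are a description of the sequence: none of the 4 genes with a match was called in any comparison with siCtrl#1.

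SLC7A5 (LAT1) exchanges large neutral amino acids such as leucine and pairs with SLC3A2 (4F2hc), the heavy chain that brings it to the cell surface. SLC7A5 stood at 313, 894 and 750 CPM in replicates 1, 2 and 3 with siCtrl#1 and at 717, 504 and 463 CPM with siCtrl#2. It stood at 379, 400 and 608 CPM with siTsg101#1, at 494, 453 and 482 CPM with siTsg101#2, at 475, 595 and 794 CPM with siVps28#1, and at 376, 587 and 546 CPM with siVps28#2. The siCtrl#1 libraries thus held both the lowest and the highest SLC7A5 level of all 18, and every other group lay between them. Over the 4 on-target siRNAs the mean log2 difference from siCtrl#1 was -0.35 (SE 0.21, 95% interval -0.79 to 0.09, edgeR adjusted p = 0.254), which the spread of these replicates could not separate from 0. The call turned on 1 library: without siCtrl#1 replicate 1 the difference was -0.69 with an edgeR adjusted p of 0.0186, and over all 27 alternatives the adjusted p ranged from 0.0186 to 0.904. Without that library siTsg101#1 and siTsg101#2 were also called, at -0.83 (edgeR adjusted p = 0.0185) and -0.80 (edgeR adjusted p = 0.0291), from -0.50 (adjusted p = 0.2) and -0.46 (adjusted p = 0.259) with it, and their adjusted p ranged up to 0.671 and 0.745 over the alternatives. Of the SLC7A5 transcript, 7.3% of the bases lie in 50-base stretches that also occur in other transcripts, among them those of its pseudogenes. An antisense gene overlaps 271 exonic bases of SLC7A5.

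SLC3A2 stood at 234, 438 and 460 CPM with siCtrl#1 and at 457, 362 and 334 CPM with siCtrl#2. Its level was 354, 347 and 455 CPM with siTsg101#1, 496, 380 and 472 CPM with siTsg101#2, 397, 462 and 736 CPM with siVps28#1, and 328, 462 and 385 CPM with siVps28#2. These groups overlapped, and the mean log2 difference from siCtrl#1 was 0.21 (SE 0.19, 95% interval -0.18 to 0.60, edgeR adjusted p = 0.457). As the partners share a complex, their transcripts were also set against each other within each library, a comparison chosen after the values were seen and given without a test. The ratio of SLC3A2 to SLC7A5 CPM was 0.857 ± 0.093 (SD, n = 12, range 0.705 to 1.0) in the on-target libraries, 0.616 ± 0.129 (SD, n = 3, range 0.49 to 0.747) with siCtrl#1 and 0.692 ± 0.0478 (SD, n = 3, range 0.637 to 0.72) with siCtrl#2. The on-target and control ranges overlapped, and within the 3 replicate batches the mean on-target log2 ratio exceeded siCtrl#1 by 0.29, 0.74 and 0.44 and siCtrl#2 by 0.52, 0.19 and 0.21.

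SLC1A5 (ASCT2) exchanges neutral amino acids including glutamine, and SLC1A4 (ASCT1) does so for alanine, serine and cysteine. SLC1A5 ranged from 338 to 609 CPM with siCtrl#1, from 459 to 657 CPM with siCtrl#2 and from 288 to 666 CPM over the 12 on-target libraries. The ranges overlapped, and its mean log2 difference was -0.17 (SE 0.17, 95% interval -0.51 to 0.18, edgeR adjusted p = 0.508).

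SLC1A4 stood at 46, 80.5 and 89.4 CPM with siCtrl#1, at 69, 83 and 82.3 CPM with siCtrl#2 and at 55.7, 49.9 and 48.2 CPM with siTsg101#1. The siTsg101#1 libraries were all below those of siCtrl#2 but overlapped those of siCtrl#1, through its first replicate. With siTsg101#2, siVps28#1 and siVps28#2 the 9 libraries ranged from 61.3 to 94.3 CPM. The difference of siTsg101#1 from siCtrl#1 was -0.50 (SE 0.20, edgeR adjusted p = 0.0726). It became -0.61 (adjusted p = 0.035, edgeR) against siCtrl#2 and -0.74 (adjusted p = 0.00604, edgeR) without siCtrl#1 replicate 1, within a range over all alternatives of 0.00604 to 0.341. The mean over the 4 siRNAs was -0.12 (SE 0.16, 95% interval -0.45 to 0.20, edgeR adjusted p = 0.612).

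SLC38A1 (SNAT1) and SLC38A2 (SNAT2) carry small neutral amino acids into cells with sodium. SLC38A1 ranged from 97.8 to 113 CPM with siCtrl#1 and from 104 to 133 CPM with siCtrl#2, and stood at 81.9, 172 and 163 CPM with siTsg101#1 and at 123, 165 and 170 CPM with siTsg101#2. All 3 siTsg101#2 libraries and 2 of the 3 siTsg101#1 libraries lay above siCtrl#1. The log2 difference was 0.43 (SE 0.21, edgeR adjusted p = 0.14) with siTsg101#1, 0.56 (SE 0.21, edgeR adjusted p = 0.0634) with siTsg101#2 and 0.37 (SE 0.17, 95% interval 0.02 to 0.73, edgeR adjusted p = 0.119) in the mean of the 4 siRNAs. With either siTsg101 siRNA the call turned on 1 library: without the first siTsg101#1 replicate the siTsg101#1 difference was 0.69 (edgeR adjusted p = 0.0118), and without the first siTsg101#2 replicate the siTsg101#2 difference was 0.69 (edgeR adjusted p = 0.0492), where all alternatives gave adjusted p values from 0.0118 to 0.485 and from 0.0178 to 0.256.

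SLC38A2 is the member best known for its induction by amino acid shortage. It ranged from 478 to 831 CPM with siCtrl#1, from 558 to 635 CPM with siCtrl#2 and from 528 to 790 CPM over the 12 on-target libraries. Its mean log2 difference was -0.002 (SE 0.14, edgeR adjusted p = 0.993). The 95% interval, from -0.29 to 0.28, was the narrowest of the 10 and does not reach 1.5-fold in either direction.

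SLC7A1 (CAT1) carries cationic amino acids such as arginine and lysine. It ranged from 368 to 782 CPM with siCtrl#1, from 534 to 903 CPM with siCtrl#2 and from 472 to 849 CPM over the on-target libraries. The mean log2 difference of 0.12 (SE 0.17, 95% interval -0.24 to 0.49, edgeR adjusted p = 0.656) was smaller than the spread between replicates.

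The first siCtrl#1 replicate stood apart in these genes and is given for that reason. It was the lowest of the 18 libraries for 6 of the 10 members (SLC7A5, SLC3A2, SLC1A4, SLC38A2, SLC7A1 and SLC36A1) and for 7 of 11 tested amino acid response genes (ATF3, ATF4, CHAC1, MTHFD2, PSAT1, SESN2 and TRIB3), against 764 of all 10212 genes, or 7.48%. In that batch siCtrl#2 exceeded siCtrl#1 by 1.19 in SLC7A5, 1.29 in SLC7A1, 0.96 in SLC3A2 and 0.96 in SLC1A5 on the log2 scale, while in the other batches the same differences were between -0.83 and -0.21. These gaps also hold the level of siCtrl#2 replicate 1, which was the highest of the 18 libraries for SLC7A1, at 903 CPM. For SLC1A5 it stood at 657 CPM. There siCtrl#1 replicate 1, at 338 CPM, was not the lowest library, as siTsg101#2 replicate 2 stood at 288 CPM. The values without this library are given beside the members whose calls it changed.

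**Figure D2:**
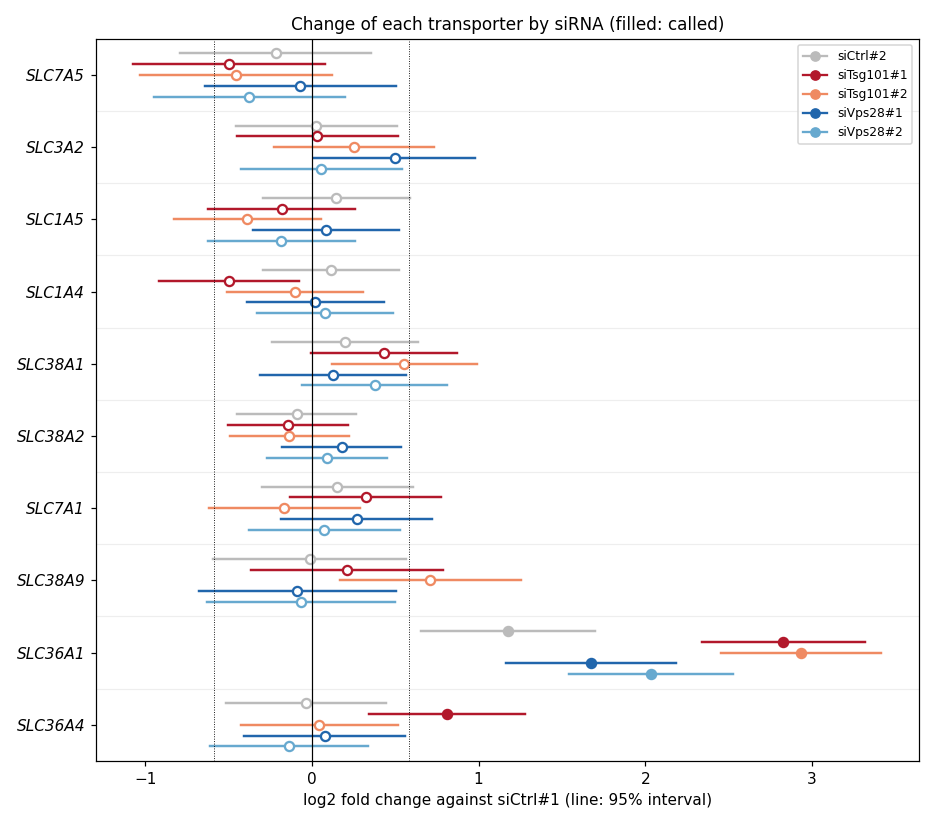
Log2 fold change against siCtrl#1 (x axis) of each transporter (y axis) for the 4 on-target siRNAs and for siCtrl#2; points are edgeR estimates from 3 libraries a group, lines are 95% intervals, filled points are called and dotted lines mark 1.5-fold. The SLC36A1 points lie between 1.18 and 2.94, that of SLC36A4 with siTsg101#1 lies at 0.81, and the other points are open.

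SLC38A9 is the lysosomal carrier that senses arginine for mTORC1. It was read at low depth, with 26 to 116 counts a library. It stood at 6.57, 9.22 and 10.4 CPM with siCtrl#1, at 10.6, 9.41 and 6.36 CPM with siCtrl#2, at 10.6, 10.2 and 9.77 CPM with siTsg101#1 and at 13.1, 18.1 and 12 CPM with siTsg101#2. The 3 siTsg101#2 libraries were the highest of the 18, and the 6 siVps28 libraries, from 5.85 to 10.6 CPM, overlapped the controls. The difference of siTsg101#2 from siCtrl#1 was 0.71 (SE 0.26, edgeR adjusted p = 0.0567), just short of the threshold, and with the replicate batch as a block it was 0.69 (edgeR adjusted p = 0.043), in a range over alternatives from 0.0205 to 0.25. Other alternatives also called it, among them the mean of both controls as reference, at 0.72 (edgeR adjusted p = 0.0205). The mean over the 4 siRNAs was 0.19 (SE 0.22, 95% interval -0.26 to 0.65, edgeR adjusted p = 0.577).

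SLC36A1 stood at 4.31, 4.92 and 4.62 CPM in replicates 1, 2 and 3 with siCtrl#1 and at 8.84, 9.66 and 12.5 CPM with siCtrl#2. With siTsg101#1 it stood at 31.9, 30.4 and 35.6 CPM, and with siTsg101#2 at 33.9, 32.1 and 40.1 CPM. With siVps28#1 it stood at 17.4, 12.7 and 14.2 CPM, and with siVps28#2 at 17.2, 14.9 and 24.7 CPM. All 12 on-target libraries were above all 6 control libraries, and all 6 siTsg101 libraries were above all 6 siVps28 libraries. The counts behind these values ran from 16 to 65 in the control libraries and from 53 to 255 in the others.

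The log2 difference of SLC36A1 from siCtrl#1 was 2.83 (SE 0.24, edgeR adjusted p = 1.42e-08) for siTsg101#1 and 2.94 (SE 0.23, edgeR adjusted p = 7.23e-09) for siTsg101#2. It was 1.67 (SE 0.25, edgeR adjusted p = 8.98e-05) for siVps28#1 and 2.03 (SE 0.24, edgeR adjusted p = 3.2e-06) for siVps28#2. In their mean it was 2.37 (SE 0.21, 95% interval 1.94 to 2.80, edgeR adjusted p = 4.35e-08), and within batches 1, 2 and 3 it was 2.42, 2.03 and 2.48. The controls differed as well: siCtrl#2 exceeded siCtrl#1 by 1.18 (SE 0.25, edgeR adjusted p = 0.0123), or 2.26-fold, and within batches 1, 2 and 3 by 1.00, 0.94 and 1.40. That call between the controls was lost without siCtrl#1 replicate 1, siCtrl#1 replicate 3 or siCtrl#2 replicate 3, where the edgeR adjusted p was 0.0602, 0.0554 and 0.119.

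The size of the SLC36A1 change therefore depended on the control. Against siCtrl#2 it was 1.65 (SE 0.21, edgeR adjusted p = 6.78e-06) with siTsg101#1, 1.76 (SE 0.21, edgeR adjusted p = 2.11e-06) with siTsg101#2 and 0.86 (SE 0.21, edgeR adjusted p = 0.0108) with siVps28#2. With siVps28#1 it was 0.50 (SE 0.22, 95% interval 0.04 to 0.96, edgeR adjusted p = 0.247), which was not called, although its 3 libraries lay above those of siCtrl#2. The mean of the 4 siRNAs against siCtrl#2 was 1.19 (SE 0.18, edgeR adjusted p = 6.36e-05), and over all 27 alternatives the mean difference stayed between 1.19 and 2.41.

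Ordered by level, the groups ran siTsg101#2, siTsg101#1, siVps28#2, siVps28#1, siCtrl#2 and siCtrl#1. The 2 siTsg101 groups differed by 0.11 (95% interval -0.29 to 0.50, edgeR adjusted p = 0.796) and the 2 siVps28 groups by 0.36 (95% interval -0.07 to 0.79, edgeR adjusted p = 0.709), so neither pair was separated. siTsg101#1 exceeded siVps28#2 by 0.80 (SE 0.20, edgeR adjusted p = 0.0109). The mean of the siTsg101 groups exceeded that of the siVps28 groups by 1.03 (SE 0.14, edgeR adjusted p = 1.86e-05), and within the 3 batches by 0.92, 1.17 and 1.00. Of the SLC36A1 transcript, 2.8% of the bases lie in 50-base stretches that also occur in another transcript, that of SLC36A2, which had no read in any library.

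Over the 6 group means, with 7946 genes of a mean of at least 10 CPM compared, the profiles nearest to that of SLC36A1 were those of N4BP2 and RIOK3. Their root mean square distance from it, in log2 CPM with each gene centred on its own mean over the groups, was 0.222 and 0.242. N4BP2 had means of 6.66 CPM with siCtrl#1, 13.1 CPM with siCtrl#2, 44.7 and 64.3 CPM with the siTsg101 siRNAs and 24.4 and 35.2 CPM with the siVps28 siRNAs. RIOK3 had means of 9.84, 15, 38, 52.1, 24 and 28.6 CPM in the same order. These are 6 points that share libraries and are given as a description.

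SLC36A4, at chr11:92877340-92931157 on the minus strand of GRCh37, differed in pattern. It stood at 18.8, 27.1 and 22.2 CPM with siCtrl#1, at 16.4, 27.0 and 22.6 CPM with siCtrl#2, at 41.8, 38.1 and 39.2 CPM with siTsg101#1 and at 17, 24.1 and 28.8 CPM with siTsg101#2. The 6 siVps28 libraries ranged from 17.4 to 31.7 CPM. The siTsg101#1 libraries were thus the 3 highest of the 18, and the siTsg101#2 libraries overlapped the controls. Against siCtrl#1 the difference was 0.81 (SE 0.23, edgeR adjusted p = 0.0106) with siTsg101#1 and 0.045 (SE 0.23, 95% interval -0.42 to 0.51, edgeR adjusted p = 0.913) with siTsg101#2. The siTsg101#1 call stood against siCtrl#2, at 0.85 (SE 0.23, edgeR adjusted p = 0.0104), and was lost without siCtrl#1 replicate 1, at 0.69 (edgeR adjusted p = 0.0596), which is the highest adjusted p over its alternatives. The 2 siRNAs against Tsg101 themselves differed by 0.77 (SE 0.22, edgeR adjusted p = 0.0337). That call was lost when any of 5 of their 6 libraries was left out, with edgeR adjusted p values from 0.0526 to 0.167; the exception was siTsg101#2 replicate 3.

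The comparisons of the siRNAs with siCtrl#1 share those 3 control libraries. Counted over the 10 members, siTsg101#1 gave 2 calls higher, against 11.8% of all tested genes. The other siRNAs gave 1 each, against 10.4% for siTsg101#2, 4.92% for siVps28#1 and 7.09% for siVps28#2. Only SLC36A1 was called higher in the mean of the 4 siRNAs and with all 4, against 8.56% and 2.59% of all genes, and only SLC36A1 was called higher with siCtrl#2 over siCtrl#1, against 1.41%. None was called lower in the mean or with all 4, against 6.54% and 1.54% of all genes. Behind that count of 0, 0 members were lower in the mean at an unadjusted p under 0.05 with edgeR and 0 were called by DESeq2. SLC36A1 was the member called higher with Tsg101 than with Vps28 depletion, against 4.16%, and SLC36A4 the member called higher with siTsg101#1 than siTsg101#2, against 3.12%. Between the depletions SLC38A9, at 0.54 (edgeR adjusted p = 0.0696), and SLC36A4, at 0.46 (edgeR adjusted p = 0.0628), were not called. Without siVps28#1 replicate 2 both were, at edgeR adjusted p values of 0.0487 and 0.0216. SLC1A4, at -0.35, and SLC38A2, at -0.27, lay the other way and were not called. The siVps28 siRNAs differed in 0 members, against 0.48% of all genes, with 0 at an unadjusted p under 0.05 in edgeR and 0 with DESeq2. The median mean difference of the 10 was 0.16, with 6 above 0, beside -0.004 over all tested genes. Counts of 1 or 2 in 10 are too small to be read apart from these shares, and the result lies with SLC36A1 rather than with the 10 as a group. SLC36A4 was called against siCtrl#1 with siTsg101#1 alone, and not without siCtrl#1 replicate 1.

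Other amino acid transporters, from lists drawn up with earlier results of these data known, were taken through the same test. Of 24 at the plasma membrane, 8 had enough counts, and 2 of these were called higher and 0 lower in the mean of the 4 siRNAs, where 8.56% of all tested genes were called higher and 6.54% lower. Of 8 on lysosomes, 6 had enough counts, while SLC7A14 did not and MFSD12 was not matched to a target; 2 were called higher and 0 lower, beside the same shares. The plasma membrane genes had a median log2 difference of -0.029, with 4 of 8 above 0, and the lysosomal genes one of 0.535, with 6 of 6 above 0, beside -0.004 over all tested genes. The controls also differed here. For siCtrl#2 over siCtrl#1 the median was 0.263 in the lysosomal genes, with 4 of 6 above 0. It was -0.038 in the plasma membrane genes, with 4 of 8 above 0.

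The lysosomal genes that rose were CTNS, which encodes the proton-coupled cystine exporter cystinosin, and SLC38A7, which exports glutamine and asparagine. CTNS stood at 15.2, 12.6 and 18.6 CPM with siCtrl#1, at 17.4, 19.8 and 18.3 CPM with siCtrl#2 and between 24.4 and 48.8 CPM in the 12 on-target libraries, which did not overlap the controls. Its mean log2 difference was 1.19 (SE 0.19, edgeR adjusted p = 6.69e-05) against siCtrl#1 and 0.95 (SE 0.18, edgeR adjusted p = 0.000798) against siCtrl#2, the lowest of its alternatives. Taken singly against siCtrl#2, siTsg101#1, siTsg101#2 and siVps28#2 were called for CTNS, and siVps28#1, at 0.68 (edgeR adjusted p = 0.0839), was not. Antisense genes overlap 338 exonic bases of CTNS. SLC38A7 stood at 27.2, 21.2 and 24.6 CPM with siCtrl#1 and at 36.1, 30.0 and 29.9 CPM with siCtrl#2, and the on-target libraries, from 33.9 to 64.6 CPM, overlapped those of siCtrl#2 alone. Its difference was 0.87 (SE 0.18, edgeR adjusted p = 0.00131) against siCtrl#1 and 0.48 (SE 0.18, 95% interval 0.12 to 0.85, edgeR adjusted p = 0.0651) against siCtrl#2, where it was not called.

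Among the other listed transporters tested, CACGTG was in 3 of the 11 promoters searched, against 10.91% of the promoters of tested genes. TGATGNAA was in 0 of these 11. Only the match in SLC38A7 is shown, and it is a description of the sequence. Of the lysosomal genes that rose, CTNS had neither motif in its promoter and SLC38A7 had CACGTG, shown here in capitals for comparison with SLC36A1 (chr16:58718625-58718700, minus strand).
SLC38A7: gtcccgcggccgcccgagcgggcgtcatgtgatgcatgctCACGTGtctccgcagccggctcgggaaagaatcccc

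The other lysosomal genes lay closer to the threshold. SLC66A1, which exports cationic amino acids, differed by 0.54 (SE 0.15, edgeR adjusted p = 0.0138), and SLC17A5, the sialic acid exporter, by 0.53 (SE 0.19, edgeR adjusted p = 0.0411), both under 1.5-fold. SLC17A5 differed by 0.89 (edgeR adjusted p = 0.0024) against siCtrl#2, where it was called. SLC15A3 and SLC15A4, carriers of histidine and small peptides, differed by 0.53 (SE 0.24, edgeR adjusted p = 0.119) and 0.099 (SE 0.17, edgeR adjusted p = 0.731), and SLC15A4 by 0.59 (edgeR adjusted p = 0.0293) against siCtrl#2. SLC15A3 and SLC66A1 went the other way. In them siCtrl#2 itself lay above siCtrl#1, by 0.50 and 0.29, and neither was called against siCtrl#2. Their lowest differences over all alternatives were 0.032 and 0.25.

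At the plasma membrane the genes that rose were SLC7A11, the cystine-glutamate exchanger xCT, and SLC7A2, a cationic amino acid carrier related to SLC7A1. SLC7A11 stood at 20.2, 95.9 and 74.7 CPM with siCtrl#1, at 153, 106 and 103 CPM with siCtrl#2, at 120, 149 and 149 CPM with siTsg101#1 and at 236, 218 and 169 CPM with siTsg101#2. With siVps28#1 it stood at 274, 312 and 317 CPM and with siVps28#2 at 239, 336 and 257 CPM. Only siTsg101#1 overlapped the controls, through siCtrl#2, and the siVps28 libraries were all above the siTsg101 ones. The mean log2 difference was 1.81 (SE 0.27, edgeR adjusted p = 4.23e-05) against siCtrl#1 and 0.88 (SE 0.25, edgeR adjusted p = 0.0187) against siCtrl#2. Against siCtrl#2 both siVps28 siRNAs were called, and siTsg101#1, at 0.22 (edgeR adjusted p = 0.679), and siTsg101#2, at 0.79 (edgeR adjusted p = 0.0752), were not. The siTsg101 mean lay below the siVps28 mean, at -0.76 (SE 0.21, edgeR adjusted p = 0.0199). The antisense gene SLC7A11-AS1 overlaps 865 of the 9645 exonic bases of SLC7A11. Where the SLC7A11 amplicon lies is not given in the sources used here. If it lies in the overlap, reads of either gene could not be told apart without strand. SLC7A2 ranged from 4.53 to 7.18 CPM with siCtrl#1, from 6.57 to 9.83 CPM with siCtrl#2 and from 7.96 to 13.8 CPM in the on-target libraries. Its difference was 0.81 (SE 0.21, edgeR adjusted p = 0.0062), and it was not called against siCtrl#2, at 0.49 (edgeR adjusted p = 0.101), nor without siCtrl#1 replicate 1, at 0.62 (edgeR adjusted p = 0.0761).

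**Figure D3:**
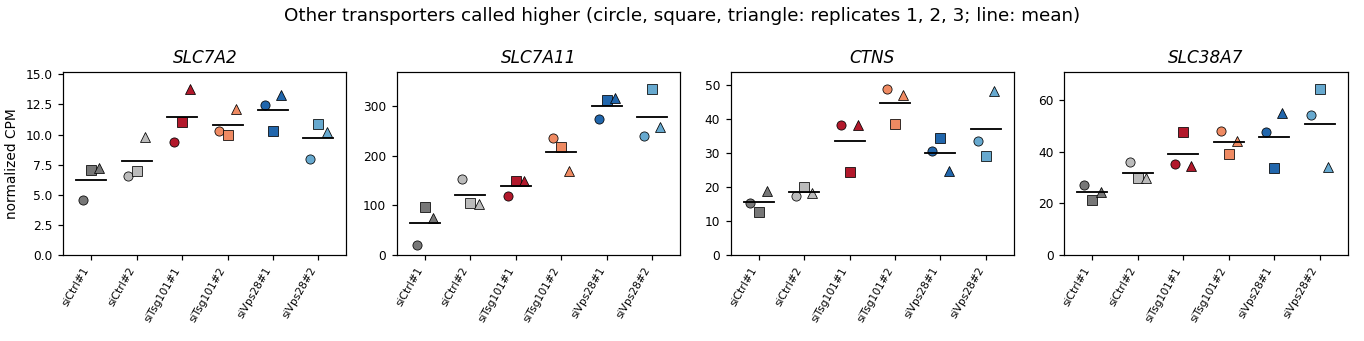
Normalized CPM (y axis, linear, starting at 0, with its own range in each panel) of the 4 other transporters called higher, by siRNA group (x axis); circles, squares and triangles are replicates 1, 2 and 3 and lines are means of 3. The on-target CTNS libraries lie at 24.4 CPM and above and the control libraries at 19.8 CPM and below, while the first siCtrl#1 replicate of SLC7A11 is at 20.2 CPM.

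**Figure D4:**
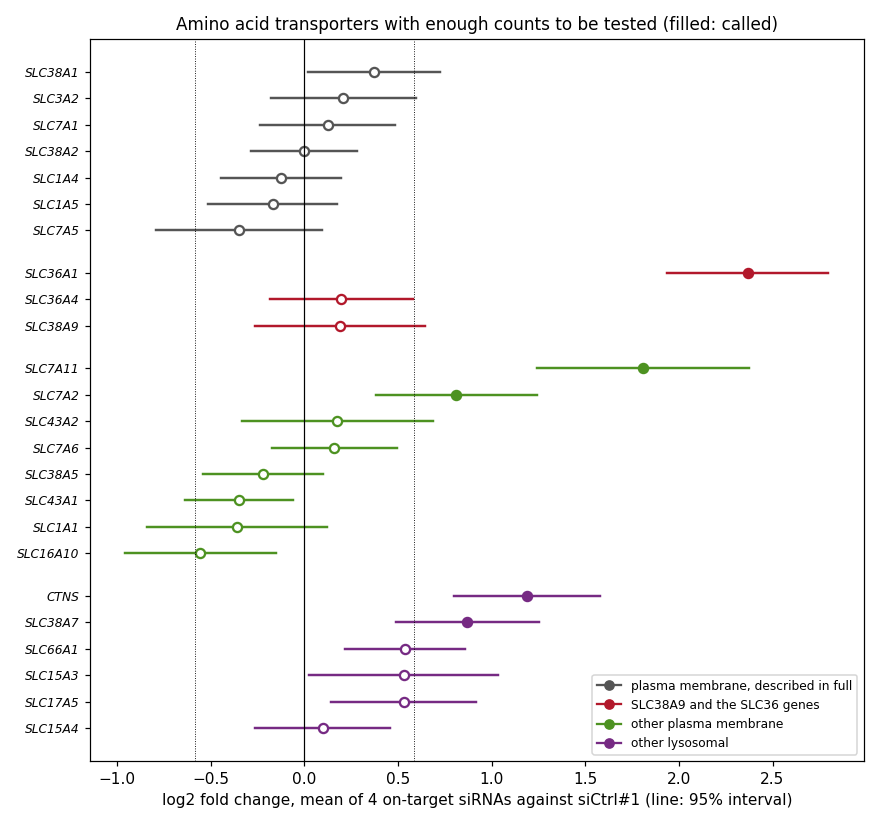
Log2 fold change averaged over the siRNAs that target Tsg101 or Vps28, relative to siCtrl#1 (x axis), for the 24 amino acid transporters tested (y axis); points are edgeR estimates, lines are 95% intervals, filled points are called, dotted lines mark 1.5-fold and colours mark the groups of genes. SLC36A1 is at 2.37, SLC7A11 at 1.81 and CTNS at 1.19, and the 7 plasma membrane members lie between -0.35 and 0.37 with open points.

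Genes known to respond to amino acid shortage were followed beside the transporters, 11 of 12 with enough counts. In the mean of the 4 siRNAs 1 was called higher and 2 lower, beside 8.56% and 6.54% of all tested genes. The higher one was SESN2, a leucine sensor that restrains mTORC1, at 0.92 (SE 0.24, edgeR adjusted p = 0.00804). It was not called without siCtrl#1 replicate 1, at 0.52 (edgeR adjusted p = 0.0548). Those called lower were PHGDH, the first enzyme of serine synthesis, at -1.07 (SE 0.13, edgeR adjusted p = 4.41e-06), and EIF4EBP1, a repressor of translation, at -0.62 (SE 0.13, edgeR adjusted p = 0.00145). The EIF4EBP1 change fell short of 1.5-fold against siCtrl#2, at -0.53 (edgeR adjusted p = 0.0083), against both controls, at -0.57, and without siTsg101#1 replicate 1, siVps28#1 replicate 1 or siCtrl#1 replicate 3, at -0.57 to -0.58. ATF4 itself differed by 0.12 (SE 0.16, 95% interval -0.21 to 0.44, edgeR adjusted p = 0.648) and ASNS, the asparagine synthetase, by 0.19 (SE 0.24, 95% interval -0.30 to 0.68, edgeR adjusted p = 0.619). TRIB3 differed by 0.64 (SE 0.26, edgeR adjusted p = 0.0743), and by 0.017 to 1.02 over its alternatives. Without the filter on counts TRIB3 was called, at 0.64 (edgeR adjusted p = 0.000219). ATF3 differed by 0.53 (SE 0.23, edgeR adjusted p = 0.1). ATF3 was called against siCtrl#2, at 0.77 (edgeR adjusted p = 0.031), and against both controls, at 0.65 (edgeR adjusted p = 0.00888). The list had a median of 0.187, with 7 of 11 above 0. That is against siCtrl#1, whose first replicate was the lowest library for 7 of the 11. For siCtrl#2 over siCtrl#1 the median was 0.07, with 6 of 11 above 0. A median against siCtrl#2 was not taken. PSAT1 turned from 0.24 to -0.88 (edgeR adjusted p = 0.000333) against siCtrl#2. ASNS and CHAC1 were among those that changed sign over the alternatives, from -0.47 to 0.42 and from -0.27 to 1.57.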

How the data were processed

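Reads were sequenced from 18 libraries of amplified transcript targets (Ion AmpliSeq Transcriptome, about 1 amplicon a gene). The authors' deposited files hold raw read counts per RefSeq target, made on hg19 with HTSeq 0.6.0 per the labels, whose notes also name DESeq2 1.18.1; strand settings are not given in the sources used here. Rows naming no gene were left out (48.23% to 49.07% of reads had no feature). Of 10632 genes with more than 100 counts over all libraries, 420 noncoding ones were left out and 10212 were tested with edgeR 4.0.16 (limma 3.58.1, R 4.3.3), all groups in 1 fit, with TMM scaling and no block. DESeq2 1.42.0 was an alternative. The fit was tested on simulated counts with no batch effect, equal controls and the same change with all 4 on-target siRNAs. That test therefore does not bear on differences between controls, batches or siRNAs. Replicate numbers mark the batch in the labels, so they pair libraries. The mean correlation of deviations from the group means was 0.141 over 45 same-number pairs, with a range of -0.137 to 0.374. Over the 90 other pairs it was -0.071. As the deviations sum to 0 in each group, that value nearly follows from the first and adds no evidence. The members, lists and tests were chosen with earlier results of these data known. Genes named are the members, listed genes past the threshold, the nearest profiles, and a few listed genes chosen after their values were seen. Promoters are RefSeq's, placed on GRCh37 by exact match. The study calls the replicates biological; p-values measure the spread between them.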

Additional observations from a re-analysis of the deposited data

Results flagged for a closer look

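Among tests of Tsg101 against Vps28 depletion as means, and of the siRNAs of each target against each other, 4 differences are given here. SLC36A1 was higher with depletion of Tsg101 than of Vps28, by 1.03 (SE 0.14, edgeR adjusted p = 1.86e-05), with all 6 siTsg101 libraries above all 6 siVps28 libraries. SLC7A11 differed the other way, by -0.76 (SE 0.21, edgeR adjusted p = 0.0199), a call that was lost without siTsg101#1 replicate 1, siVps28#2 replicate 2 or siTsg101#2 replicate 3, with edgeR adjusted p values of 0.0529, 0.0528 and 0.0533. SLC36A4 was higher with siTsg101#1 than with siTsg101#2, by 0.77 (SE 0.22, edgeR adjusted p = 0.0337), a call that was lost when any of 5 of these 6 libraries was left out, with edgeR adjusted p values from 0.0526 to 0.167. SLC7A6, which exchanges cationic for neutral amino acids, was also higher with siTsg101#1 than with siTsg101#2, by 1.01 (SE 0.20, edgeR adjusted p = 0.00224), with 22.5, 25.2 and 22.8 CPM against 13.4, 9.03 and 12.6 CPM, and kept the call under all 27 alternatives. Both siRNAs lowered TSG101, by the values given above.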

How the results depend on the processing

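Of the 90 values of the 10 members, none that was called, in the values reported or under an alternative, changed sign; values near 0 that were not called did so in places, as SLC7A1 in the mean, at 0.12 against siCtrl#1 and -0.027 against siCtrl#2. Against siCtrl#2 the count of members called higher with all 4 on-target siRNAs was 0 in place of 1, through SLC36A1 with siVps28#1. By adjusted p alone, 1 other transporter was lower in the mean, SLC16A10, at -0.55 (edgeR adjusted p = 0.0411), in place of 0. PSAT1, a serine synthesis enzyme, turned from 0.24 against siCtrl#1 to -0.88 (edgeR adjusted p = 0.000333) against siCtrl#2. Leaving out 1 library at a time gave, in the mean, 1 to 1 members higher and 0 to 1 lower, with all 4 siRNAs 1 to 1 higher and 0 to 0 lower, between the controls 0 to 1, between Tsg101 and Vps28 depletion 1 to 3, between siRNAs of 1 target 0 to 1, and 3 to 6 other transporters higher and 0 to 1 lower. The replicate block moved the SLC38A9 difference with siTsg101#2 from 0.71 to 0.69 with an edgeR adjusted p of 0.043 and changed no other member's call; it made TRIB3 a call in the mean, at 0.70 (edgeR adjusted p = 0.042). The same SLC38A9 difference was called without the filter on counts, at 0.71 (edgeR adjusted p = 0.0491). With genes of at least 10 counts in every library it was called at 0.72 (edgeR adjusted p = 0.0472). Against the mean of both controls it was called at 0.72 (edgeR adjusted p = 0.0205), and without siVps28#2 replicate 1 at 0.70 (edgeR adjusted p = 0.0495). DESeq2, RLE scaling and keeping noncoding genes changed no member's call. SLC36A1 and SLC38A9 rested on as few as 16 and 26 counts a library, which limits their precision.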
